A study of Mus musculus with 9 samples.

Results

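The complement system is represented here by 9 genes and regulators chosen by name, namely *C1qa*, *C1qb*, *C1qc*, *C3*, *Cfb*, *Cfi*, *Cd46*, *Cd55* and *Serping1*. They are 9 of the 37725 genes in a single-cell RNA-sequencing matrix of 31089 cells from the mouse retina, and all 9 were found by name. Cells had been barcoded by the split-pool Evercode method, and each value is a raw count of UMIs (unique molecular identifiers, by which copies of the same captured RNA are counted once), without normalization. The 4 control mice (S01 to S04) and the 5 dKO mice (S05 to S09) carried floxed miR-204 and miR-211 alleles and RPE65-ERT2-Cre, a recombinase that is driven in the retinal pigment epithelium (RPE) and is active after tamoxifen. From postnatal day 28, on 5 days, dKO mice received tamoxifen at 75 mg/kg and control mice received corn oil alone, so tamoxifen itself and the deletion of the microRNAs cannot be told apart in these groups. The labels give this genotype and corn oil for the control mice, whereas the study's text describes controls without Cre that received tamoxifen, and the labels were followed here. If the text applies to these mice, it is Cre and the deletion that cannot be told apart. Tissue was taken 6 months later, and the neural retina had been peeled from the eye cup, which limits the RPE and choroid that each sample holds.

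Complement is a protein cascade that tags surfaces for removal. C1q, built from the products of *C1qa*, *C1qb* and *C1qc*, starts the classical pathway, and C3 is the central protein that the convertases cleave, while factor B supplies the protease of the alternative convertase. Factor I, CD46, CD55 and the C1 inhibitor encoded by *Serping1* hold the cascade back. In the retina, microglia are known as a main source of C1q, and loss of complement control is linked to macular degeneration.

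Both deleted microRNAs share the seed (bases 2 to 8, in capitals) through which they pair with target transcripts. The mature sequences, from RefSeq on GRCm38.p6 at chr19:22750610-22750631 and chr7:64205831-64205852 on the plus strand, are shown because this seed defines the sites searched for below.
miR-204-5p: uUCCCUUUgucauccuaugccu
miR-211-5p: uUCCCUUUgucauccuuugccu
The matching site, AAAGGGA, was searched on the transcript strand of all annotated 3′-UTRs (GENCODE M39 on GRCm39). It was found in 4473 of 21522 genes with a 3′-UTR (20.783%), and in 0 of the 9 complement genes. Some of the 9 have short 3′-UTRs, at most 49 bases for *C3*, 197 for *Cfi* and 245 for *C1qa*, though *Cd46* has 5169. The 2 shares are therefore not like for like. Seeds of the 3p forms, which the study also considered, were not searched. Among 58 complement genes, a wider list that includes the 9, 10 held the AAAGGGA site, among them *Csmd1*, *Lrp1* and *Cd93*. The 3 sites of *Csmd1*, a membrane regulator of complement, at chr8:15944907-15944913, chr8:15944519-15944525 and chr8:15942967-15942973 on the minus strand, are given with their flanks, since the gene is described below. The match is in capitals.
*Csmd1*, site 1: agttggaatgtAAAGGGAagtatcccaga
*Csmd1*, site 2: cagaggaatcaAAAGGGAaatcaaagttc
*Csmd1*, site 3: ttataaaaaaaAAAGGGAgaaaagaaagc
A match is a description of the letters in the annotated transcript and not a measured site.

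Cell types were gated by their markers, and a cell went to a type if 3 or more of its 5 marker genes had a UMI, their summed UMIs passed a minimum and no further type passed. None of the 9 genes was a gate marker. This gave 64 microglia, 341 RPE cells, 2195 Müller glia, 337 vascular cells (150 pericytes and 187 endothelial cells) and 345 fibroblast-like cells, with 6 neuronal types for comparison. Between 15079143 and 66528160 UMIs were counted per mouse, and 0 cell barcodes were shared by mice. Summed over 5 markers that the gates did not use, each type was highest for its own list, with 1163 CPM in microglia (CPM, a gene's UMIs scaled to a type total of 1000000), 13269 in RPE, 6130 in Müller glia, 3379 in pericytes, 7638 in endothelial cells and 580 in fibroblast-like cells. Single markers could be higher elsewhere, such as *Mgp*, at 131 CPM in fibroblast-like cells against 265 in endothelial cells and 241 in pericytes, and *Vim*, at 76.8 CPM in Müller glia against 483 in fibroblast-like cells. The microglia also held all 5 markers of border macrophages, summing to 697 CPM, and such cells are counted with them below. Müller glia held astrocyte markers, with *Gfap* at 44.8 CPM and *Pax2* at 18.3 CPM, both above every other gated type. *S100b*, a further astrocyte marker, was 9.64 CPM there, below the 14.6 CPM of fibroblast-like cells. Astrocytes had no gate, so such cells would be counted with Müller glia. Control mouse S04 and dKO mice S05 and S07 stood apart, where 85.7%, 71.2% and 76.9% of cells were gated as rods, compared with 31.2 to 45.1% for the remaining 6 mice, and with fewer UMIs per cell. The same 3 mice differed from the other 6 in sex-linked RNA, with *Xist*, a transcript of the inactive X chromosome, at 35.4 to 51.8 CPM against 1377 to 1570 CPM, so the rod share and this difference cannot be told apart. Mice S06 and S07 share an animal number in the labels but fall on opposite sides of that split, and were counted as different mice.

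Of the 9 genes, *C1qa*, *C1qb* and *C1qc* belonged to microglia, *C3*, *Cfb*, *Cd55* and *Serping1* were highest in fibroblast-like cells, *Cfi* was at most 0.687 CPM in the 5 types, and *Cd46* was found in every gated type. The order is given for each gene below, and for *C3* the lead of fibroblast-like cells over microglia did not hold in every mouse. No member that could be tested passed the adjusted threshold between dKO and control mice in any of the 5 types.

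**Figure D1:**
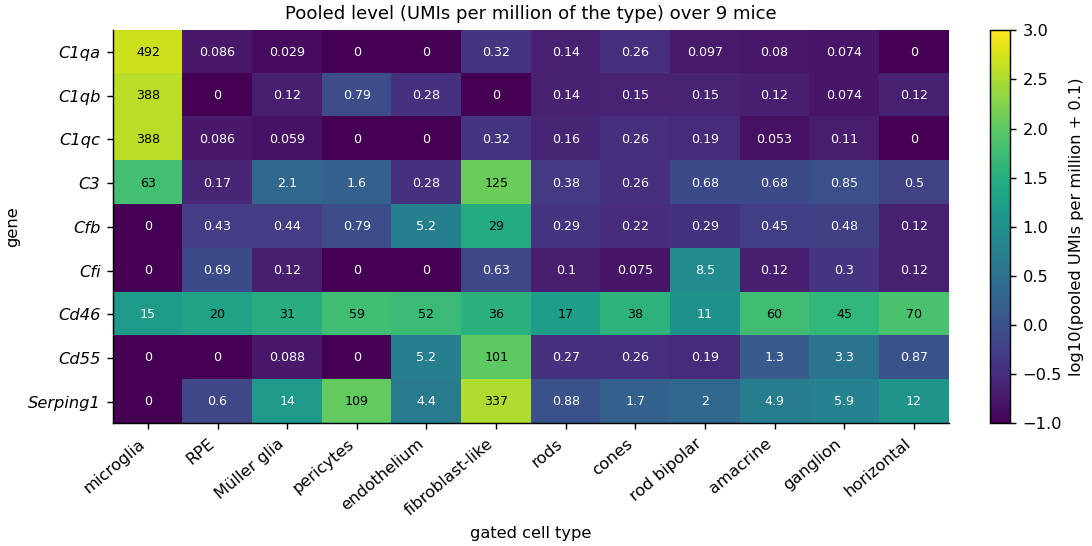
Colour and printed numbers give the pooled level of each complement gene (rows) in each gated cell type (columns) in CPM over the 9 mice, with the colour on a log10 scale after adding 0.1. The C1q genes reach 388 to 492 CPM in microglia, and *Serping1* reaches 337 CPM in fibroblast-like cells.

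The C1q genes lie next to each other on chromosome 4 of GRCm39, on the minus strand, with *C1qb* (ENSMUSG00000036905) from 136606009 to 136613511, *C1qc* (ENSMUSG00000036896) from 136616466 to 136620376 and *C1qa* (ENSMUSG00000036887) from 136623223 to 136626161. In microglia, *C1qa* had 233 UMIs (492 CPM), *C1qb* 184 (388 CPM) and *C1qc* 184 (388 CPM) of 473643 UMIs in all. At least 1 UMI of *C1qa* was found in 84.4% of the 64 cells (95% exact interval 73.1 to 92.2%), and all 3 genes in 39 cells. The 2 cells with none had a median of 3891.5 UMIs, against 7485 in the 39 cells with all 3. In rods, which should lack the genes, 0.0834% of cells had a *C1qa* UMI at a median of 4706.5 UMIs per cell, against 6931 in microglia. After each cell was thinned to 3000 UMIs, the share was 66.7% in the 60 microglia deep enough and 0.0562% in rods.

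The other 4 types together held few C1q molecules. *C1qa* had 1 UMI in RPE, 1 in Müller glia and 1 in fibroblast-like cells and 0 in vascular cells, where 3 UMIs, the limit that a count of 0 allows, would give a level at least 801-fold lower than in microglia. *C1qb* had 4 UMIs in Müller glia, and the microglial level was 3303-fold higher (95% interval 1268 to 12250, counting error only). In the fit of all types with the mouse as a block, microglia exceeded the mean of the other 4 types by 11.38 on the log2 scale for *C1qa* (standard error 0.50, adjusted p = 2.08e-13), 11.60 for *C1qb* and 10.70 for *C1qc* (Benjamini-Hochberg adjusted, edgeR's quasi-likelihood test). The background in this contrast is high, since 12.6% of 11444 genes tested were higher in microglia, and fitted sizes against types with almost no UMIs depend on the prior count. The C1q genes passed the low-count filter through microglia, so the contrast adds little to the counts themselves. *C1qa* had 91 of its 357 UMIs, 25.5%, in cells that no gate took, and these are not counted with any type. This share was 31.9% for *C1qb* and 29.2% for *C1qc*. Among the other members it ran from 12.4% for *Cfi* to 29.9% for *C3*, against 21.7% of all UMIs.

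Upstream of the *C1qc* start, a match to the core of the myeloid factor PU.1, GAGGAAG, was found on the opposite strand within the stretch at chr4:136893090-136893119 of GRCm38.p6, shown with the match in capitals.
*C1qc*: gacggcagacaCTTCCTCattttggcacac
Promoters of 5 of the 9 genes were matched in the RefSeq table (250 bases before to 50 after the start), and of these only *C1qc* held the motif, whereas 4477 of 32851 promoters (13.628%) did, searched on both strands.

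Per mouse, the level of *C1qa* in microglia was, in the order S01 to S04, 448, 474, 398 and 438 CPM for control animals, and in the order S05 to S09, 374, 499, 830, 349 and 571 CPM for dKO animals. *C1qb* had 149, 485, 338 and 146 CPM in control and 294, 351, 467, 489 and 364 in dKO mice. *C1qc* had 299, 464, 358 and 146 CPM in control and 321, 459, 502, 252 and 390 in dKO mice. The groups overlapped for all 3 genes. These values rest on 1 to 15 microglia per mouse, and S04 has only 1 cell.

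Only control mouse S02 and dKO mice S06 and S08 had at least 10 microglia, so the fit for the dKO compared 1 mouse with 2 and has no spread among control mice of its own. The log2 fold changes were -0.12 (standard error 0.54) for *C1qa*, -0.17 for *C1qb* and -0.34 for *C1qc*, with adjusted p of 0.972, 0.967 and 0.917 from edgeR's quasi-likelihood test. In this fit 2.34% of 2352 genes were called, and 10.5% had an unadjusted p below 0.05. The lone control mouse was assumed to vary like the dKO mice. With the mice that have at least 5 microglia (3 control and 4 dKO, a choice made after seeing the data), an exact two-sided permutation test on log2(CPM + 1) gave p = 0.457 for *C1qa*, p = 0.343 for *C1qb* and p = 0.857 for *C1qc*, where 0.0571 is the smallest p possible. In that selection the differences, dKO minus control, were 0.29, 0.51 and 0.08, so the direction turned with the mice admitted.

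**Figure D2:**
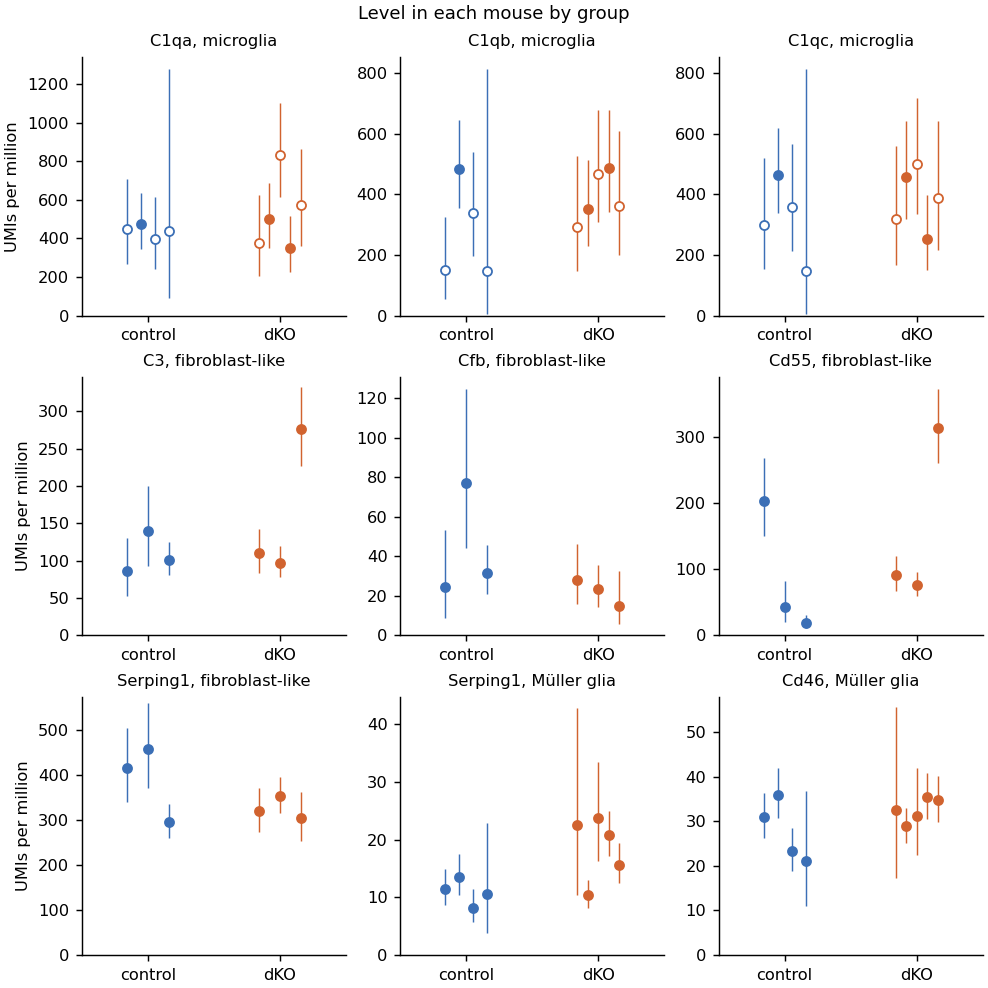
Each point is a mouse, with the level in CPM (UMIs per 1000000) on the vertical axis and its exact 95% counting interval as the bar; open points have fewer than 10 cells of the type. Control and dKO mice overlap in each panel.

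*C3* (ENSMUSG00000024164, chromosome 17 from 57510964 to 57535155, minus strand) encodes the protein on which all pathways converge. In fibroblast-like cells it had 393 UMIs (125 CPM), and 24.1% of the 345 cells had at least 1. The values were 85.5, 139 and 101 CPM in control mice S01, S02 and S03 and 110, 96.8 and 276 in dKO mice S06, S08 and S09. Mouse S09 stood above the other 5, which overlapped. The log2 fold change of dKO over control was 0.55 (standard error 0.40, adjusted p = 0.9995, edgeR), and -0.07 without S09. Mice S04, S05 and S07 had no fibroblast-like cell, so this type was compared in 3 and 3 mice.

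In microglia, *C3* had 30 UMIs (63.3 CPM), all of them in 6 of 64 cells. They came from 1 cell of control mouse S01 (4 UMIs), 1 cell of S05 (10), 1 cell of S07 (10) and 3 cells of S08 (6), and the other 5 mice had 0. Of these 6 cells, 3 had a UMI of a border macrophage marker, against 9 of the 58 cells without *C3*, and the part of such cells in this level was not tested. Müller glia had 72 UMIs (2.12 CPM), of which 28 came from S01 and 17 from S02, and their levels were 5.72, 3.73, 0.241 and 0 CPM in control and 0, 0.822, 0, 2.03 and 1.68 CPM in dKO mice. An exact two-sided permutation test gave p = 0.429 for Müller glia (4 against 5 mice), adjusted p = 0.823 over 9 such tests. Between types, fibroblast-like cells exceeded the mean of the other 4 by 6.23 on the log2 scale (standard error 0.37, adjusted p = 8.48e-15, edgeR), as 28.9% of all genes tested were higher there. The low-count filter kept *C3* mainly through fibroblast-like cells, so this contrast adds little to the counts of these cells. Their next neighbour, microglia, lay 2.75 lower (standard error 0.80, adjusted p = 0.0076, edgeR), but this fit holds the microglia of 3 mice only (S02, S06 and S08), of which S02 and S06 had 0 *C3* UMIs. Pooled over all mice, fibroblast-like cells exceeded microglia 1.97-fold (95% interval 1.36 to 2.96, counting error only), and in mouse S01 microglia had 99.6 CPM, from 4 UMIs, against 85.5 CPM in fibroblast-like cells. The microglia of S05 and S07, at 267 and 173 CPM, have no fibroblast-like cells beside them. Microglia in turn exceeded Müller glia by 3.16 (adjusted p = 0.0427), while Müller glia and vascular cells did not differ beyond their spread (1.48, standard error 1.04, adjusted p = 0.227). Pairs of types differ in many genes, and of the 11444 genes tested 34.4% were called between microglia and fibroblast-like cells, 38.2% between microglia and Müller glia and 60.2% between Müller glia and vascular cells.

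*Cfb* (ENSMUSG00000090231, chromosome 17 from 35074852 to 35081559, minus strand) encodes factor B and overlaps *Nelfe* and the readthrough gene *Gm20547*, so its counts are uncertain where the annotation could split them. Fibroblast-like cells had 91 UMIs (28.9 CPM) in 52 of 345 cells. Control mice S01, S02 and S03 had 24.4, 76.9 and 31.3 CPM, and dKO mice S06, S08 and S09 had 28.0, 23.4 and 15.1 CPM. S02 was the highest and S09 the lowest, and the groups overlapped. The log2 fold change was -0.86 with a standard error of 0.45 (unadjusted p = 0.0852, adjusted p = 0.9995, edgeR). Fibroblast-like cells exceeded the mean of the other types by 6.09 on the log2 scale (standard error 0.60, adjusted p = 1.09e-09, edgeR). As with *C3*, the filter kept *Cfb* mainly through fibroblast-like cells, so this contrast adds little to the counts. Vascular cells came next, 3.74 lower (standard error 0.62, adjusted p = 1.15e-05), in a pair of types where 45.6% of genes were called.

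Endothelial cells held 19 of the 20 vascular *Cfb* UMIs, in 9 of 187 cells. In vascular cells, the control mice had 0, 0, 1.73 and 0 CPM, and the dKO mice with at least 10 cells, S06 to S09, had 1.60, 6.81, 1.80 and 5.89 CPM. The lowest dKO mouse, S06, was below control mouse S03, and each of these 2 values is 1 UMI. An exact two-sided permutation test over 4 and 4 mice gave p = 0.0571, adjusted p = 0.514 over 9 tests. Mouse S05, with 6 UMIs in 6 cells, was not in this comparison. In endothelial cells alone, a split looked at after its values were seen, control mice S01, S02 and S03 had 0 UMIs and dKO mice S06 to S09 had 2.54, 7.76, 3.10 and 8.35 CPM, from 1, 7, 1 and 4 UMIs. These groups do not overlap, but 3 UMIs would be 4.99 to 12.9 CPM in the control mice, and 3 against 4 mice cannot give an exact p below 0.0571. The control UMI of S03 was in a pericyte.

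*Cfi* (ENSMUSG00000058952, chromosome 3 from 129629533 to 129668981, plus strand), the gene of factor I, the protease that cuts C3b, was nearly undetected in the 5 types. It had 8 UMIs in RPE (0.687 CPM), 4 in Müller glia, 2 in fibroblast-like cells and 0 in microglia and in vascular cells. The filter on low counts removed it, so it has no test there, and at this depth a low level could not be told from 0 in microglia, where 3 UMIs would be 6.33 CPM. In contrast, 175 of its 250 UMIs (70.0%) were in rod bipolar cells, which hold 5.23% of all UMIs. This type was singled out after its values were seen. Cone bipolar cells had no gate of their own, so some of them may be counted with it. The level was 4.42, 12.2, 8.04 and 12.3 CPM in control and 16.6, 8.29, 2.36, 11.7 and 9.85 CPM in dKO mice, and every mouse had at least 2 UMIs. The groups overlapped widely (exact permutation test, two-sided, p = 0.921, adjusted p = 0.968 over 9 tests). In rods 0.0577% of cells had a *Cfi* UMI, against 8.97% of rod bipolar cells, and 0.0241% against 2.67% after thinning to 3000 UMIs.

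*Cd46* (ENSMUSG00000016493, chromosome 1 from 194719134 to 194774561, minus strand) encodes a cofactor with which factor I degrades C3b, and it was the broadest of the 9 genes. Its gene overlaps the lncRNA *A330023F24Rik* on the opposite strand, which had 127 to 494 CPM in the gated types; the counting is not stated to use strand, so reads of the pair may not be separable. The pooled level was 54.2 CPM in vascular cells, 35.6 in fibroblast-like cells, 31.4 in Müller glia, 19.8 in RPE and 14.8 (7 UMIs) in microglia, and among neurons it ranged from 11.2 CPM in rod bipolar cells to 70.5 in horizontal cells. Vascular cells exceeded the mean of the other 4 types by 0.94 on the log2 scale (standard error 0.20, adjusted p = 2.33e-04, edgeR), where 24.6% of genes were higher, and in control mice alone by 0.76 (adjusted p = 0.0666).

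Neighbours in the order of *Cd46* were hard to separate. No pair of neighbours passed the adjusted threshold (edgeR). The difference was 0.43 (standard error 0.23, adjusted p = 0.123) for vascular minus fibroblast-like cells. It was -0.27 (standard error 0.21, adjusted p = 0.292) for Müller glia minus fibroblast-like cells. For RPE minus Müller glia it was -0.41 (standard error 0.19, adjusted p = 0.0592), close to the threshold. For microglia minus RPE it was -0.42 (standard error 0.58, adjusted p = 0.607). Vascular cells exceeded Müller glia by 0.70 (standard error 0.18, adjusted p = 0.0011) and RPE by 1.11 (standard error 0.20, adjusted p = 2.20e-05). The share of all genes called was 60.6% between RPE and vascular cells, 58.8% between RPE and Müller glia, 59.1% between Müller glia and fibroblast-like cells and 38.9% between microglia and RPE. In Müller glia, the best sampled of the 5 types, *Cd46* was 31.1, 36.0, 23.3 and 21.1 CPM in control and 32.6, 28.9, 31.1, 35.4 and 34.7 CPM in dKO mice, and the log2 fold change was 0.17 with a standard error of 0.17 (adjusted p = 0.9999). In fibroblast-like cells it was 77.4, 28.8 and 42.9 CPM in control and 33.6, 26.7 and 20.1 CPM in dKO mice, and the estimate was -0.87 on the log2 scale with a standard error of 0.40 (unadjusted p = 0.0550, adjusted p = 0.9995). Control mouse S02 lay among the dKO mice here. In RPE the change was -0.14 (standard error 0.29) and in vascular cells -0.06 (standard error 0.29), and the sign of both turned when single mice were left out.

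**Figure D3:**
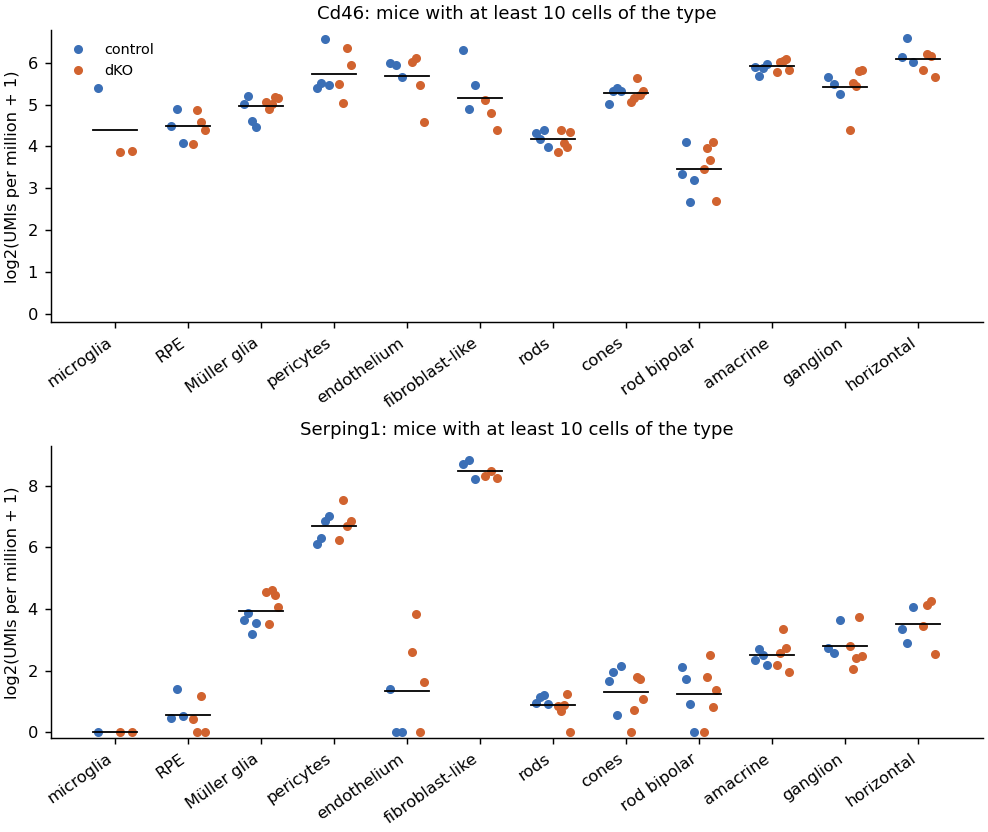
The level of *Cd46* (upper) and *Serping1* (lower) in each gated cell type, as log2(CPM + 1), with a point for each mouse that has at least 10 cells of the type and a line at the mean over mice. *Cd46* was present in every type, whereas *Serping1* spanned from 0 in microglia to above 8 in fibroblast-like cells.

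*Cd55* (ENSMUSG00000026399, chromosome 1 from 130366469 to 130390926, minus strand) encodes a membrane protein that speeds the decay of convertases. It was highest in fibroblast-like cells, which held 47.0% of its 675 UMIs. It had 317 UMIs there (101 CPM), 19 in vascular cells (3.89 CPM), 3 in Müller glia and 0 in microglia and RPE. Among neurons, amacrine cells had 97 UMIs (1.29 CPM) and ganglion cells 90 (3.34 CPM). Per mouse the level in fibroblast-like cells was uneven, at 204, 43.3 and 18.6 CPM in control mice S01, S02 and S03 and 91.3, 75.6 and 313 CPM in dKO mice S06, S08 and S09. Control S01 and dKO S09 stood high, and the groups overlapped. The log2 fold change was 0.98 with a standard error of 0.77 (adjusted p = 0.9995, edgeR), and it became 0.06 without S09 and 2.55 without S01 (adjusted p = 0.234). Fibroblast-like cells exceeded the other types by 8.76 on the log2 scale (standard error 0.38, adjusted p = 8.72e-15, edgeR). The filter kept *Cd55* mainly through fibroblast-like cells, so this contrast too adds little to the counts. All 19 vascular UMIs were in endothelial cells, with 0 in pericytes. Per mouse, the endothelium was higher in 6 of 7 mice with 10 cells of both (exact sign-flip permutation test, two-sided, p = 0.0313, adjusted p = 0.0625 over 4 tests). The mouse paralog *Cd55b* is similar in sequence, so reads may be shared between them. *Cd55* also overlaps the lncRNA *Gm16083* on the opposite strand, which had 22 UMIs in vascular cells and 59.4 CPM in ganglion cells. Reads of this pair may not be separable either.

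*Serping1* (ENSMUSG00000023224, chromosome 2 from 84595705 to 84620873, minus strand) encodes the C1 inhibitor, which blocks C1r and C1s. It had 1062 UMIs in fibroblast-like cells (337 CPM, 84.6% of cells) and 138 in pericytes (109 CPM, 46.0% of cells), and 472 in Müller glia (13.9 CPM, 14.9% of cells). In microglia it had 0 UMIs, at least 53.2-fold lower than in fibroblast-like cells against the 3 UMIs that a count of 0 allows. Fibroblast-like cells exceeded the other types by 7.40 on the log2 scale (standard error 0.26, adjusted p = 1.57e-19). Their levels per mouse were 415, 457 and 296 CPM in control and 319, 354 and 304 CPM in dKO mice, and their log2 fold change was -0.24, again within the spread (standard error 0.21; adjusted p = 0.9995, edgeR). Pericytes exceeded endothelial cells in 7 of 7 mice, at 105 ± 39.5 against 3.16 ± 4.83 CPM (SD, n = 7, exact sign-flip permutation p = 0.0156, the smallest these mice allow, adjusted p = 0.0625).

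In Müller glia *Serping1* was 11.4, 13.6, 8.18 and 10.6 CPM in control mice and 22.6, 10.4, 23.7, 20.8 and 15.7 CPM in dKO mice (S05 first). Of the 5 dKO mice, 4 lay above every control mouse, and S06 lay within the control range. The log2 fold change was 0.65 with a standard error of 0.26 (unadjusted p = 0.0308), which did not pass the adjustment over 13289 genes (adjusted p = 0.9999, edgeR), where 2.42% of genes had an unadjusted p below 0.05 and 0 had an adjusted p below it. It stayed between 0.49 and 0.84 over the 18 alternatives. The fibroblast gate markers summed to 5.28 to 30.1 CPM in the Müller glia of control and 2.51 to 14.6 CPM of dKO mice, and the pericyte gate markers to 162 to 276 CPM and 171 to 185 CPM, and these ranges overlapped. The astrocyte marker *Gfap* was 25.3, 51.5, 45.0 and 373 CPM in control Müller glia. In dKO mice it was 5.02, 23.0, 3.71, 52.0 and 57.3 CPM. Mice S05 and S07, highest in *Serping1*, were lowest in *Gfap*, and the part of astrocytes in the *Serping1* values was not tested. Without the rod-rich mice S04, S05 and S07 the change in *Serping1* was 0.49 (unadjusted p = 0.122).

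**Figure D4:**
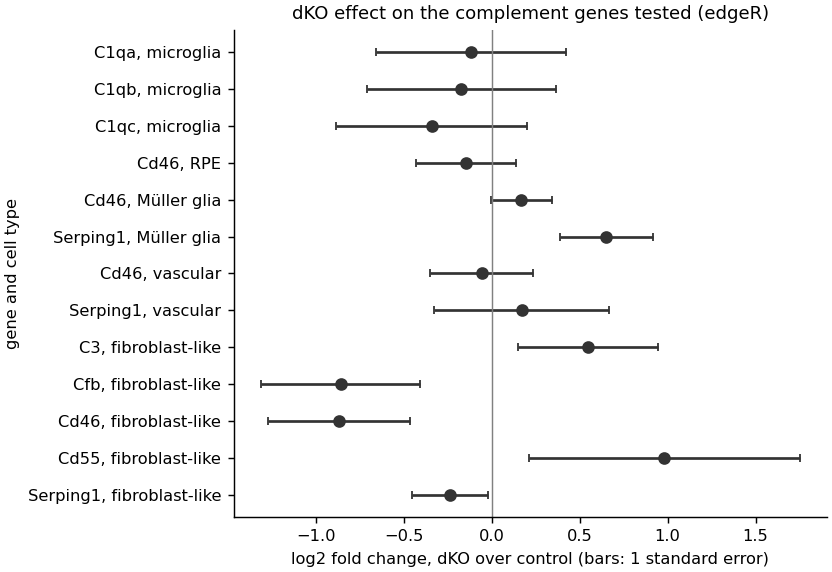
Points give the log2 fold change of dKO over control mice for each complement gene and cell type that the filter left in the edgeR fit, with bars of 1 standard error. *Serping1* in Müller glia has the smallest p of these 13 values, and none passes the adjusted threshold.

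In all, 13 pairs of member and cell type passed the filter on low counts, since *C3*, *Cfb*, *Cd46*, *Cd55* and *Serping1* were tested in fibroblast-like cells, the 3 C1q genes in microglia, *Cd46* in RPE, Müller glia and vascular cells, and *Serping1* in Müller glia and vascular cells. Of these, 0 passed an adjusted p of 0.05 and 1 had an unadjusted p below 0.05. The share of all genes called was 0.0103% in RPE and 0% in Müller glia, vascular and fibroblast-like cells, and 4.92%, 2.29% and 4.06% had an unadjusted p below 0.05 in RPE, vascular and fibroblast-like cells. By DESeq2, 0 of the 13 passed as well. Whether the effect differs between types was tested by an interaction of each type with the mean of the other 4. It had a usable error in all 5 types for *Cd46*, where no interaction passed (adjusted p of 0.940 or above, with 0.0262% of all genes called for microglia and 0% for the other 4 types). For *C3* it had one in Müller glia (log2 -5.16, standard error 1.69, unadjusted p = 0.0060, adjusted p = 1) and in fibroblast-like cells (log2 -3.29, standard error 1.81, unadjusted p = 0.083), and neither passed. These estimates set a type against others with few *C3* UMIs, such as 2 in RPE and 3 in vascular cells. The microglia in the fit were those of S02, S06 and S08, with 0, 0 and 6 *C3* UMIs. Their own estimate was the largest (log2 7.57) and had no usable error. The size of the *C3* interactions thus depends on the prior count. Within fibroblast-like cells the log2 fold change of *C3* was 0.55. For the other genes, types at or near 0 left no usable error.

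The wider list of 58 complement genes was described in the same cells, and its genes were taken by role. Among receptors, microglia held *Itgam* (728 CPM) and *Itgb2* (190 CPM), the chains of complement receptor 3, *C3ar1* (196 CPM), the C3a receptor, and *C5ar1* (163 CPM), the C5a receptor. Each was at most 1.59 CPM in RPE, Müller glia, vascular and fibroblast-like cells, and exceeded the mean of these types by 8.41 to 11.06 on the log2 scale. Fibroblast-like cells held the proteases of the classical pathway that act beside C1q, with *C1s1* at 219 CPM and *C1ra* at 64.8 CPM, and also *C2* (58.1 CPM) and *C4b* (115 CPM). All 4 exceeded the mean of the other types (log2 4.03 to 7.39). *C1ra*, *C1s1* and *C4b* each have a near copy in the mouse genome, so their counts may be split.

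Regulators were spread more widely. *Clu*, which blocks the terminal complex, was 1663 CPM in RPE and 1093 in Müller glia, and *Vtn* was 740 CPM in pericytes. *Cr1l*, the gene of Crry, a membrane regulator of rodents, was 123 CPM in vascular cells and 16.9 to 59.1 in the other 4 types. Of the 32 list genes in the type fit, 13 were higher in fibroblast-like cells than in the other types, 11 in microglia and 10 in vascular cells, against 28.9%, 12.6% and 24.6% of all genes tested. In RPE 4 were higher and 9 lower, where 31.3% of all genes tested were higher and 2415 of 11444 were lower. In Müller glia 6 were higher and 7 lower, against 33.2% of all genes higher and 2213 of 11444 lower. These counts include the members. The low-count filter kept genes that were counted almost only in a single type. Examples are the C1q genes, *C3ar1* and *C5ar1* in microglia and *Cd55* in fibroblast-like cells. By their levels, *C3*, *Cfb*, *C1ra* and *C2* were also kept mainly through fibroblast-like cells. For such genes a call in that type was largely set by the filter, so the counts describe where the genes lie and give no separate support.

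**Figure D5:**
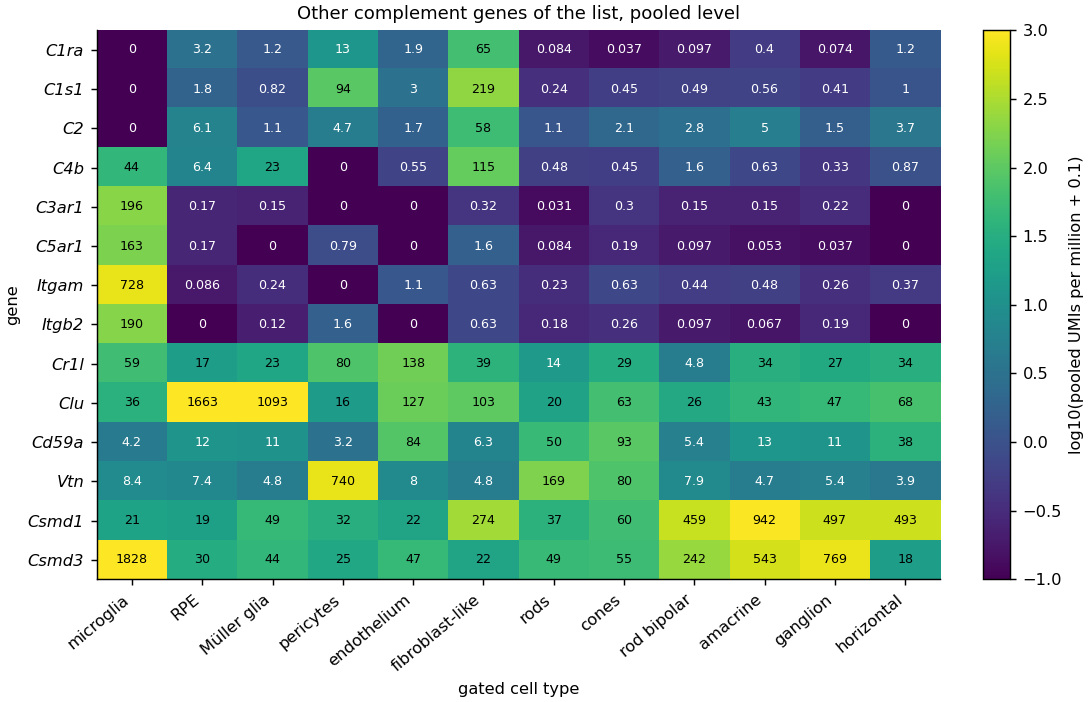
Pooled level in CPM of further genes of the complement list (rows) in each gated cell type (columns), with the colour on a log10 scale after adding 0.1 and capped at 1000. The receptors *Itgam*, *Itgb2*, *C3ar1* and *C5ar1* stand out in microglia, and *C1s1* in fibroblast-like cells.

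Between dKO and control mice, 0 of the list's genes passed in any type, out of 11 tested in microglia, 13 in RPE, 19 in Müller glia, 15 in vascular and 16 in fibroblast-like cells. The list's median log2 fold change was -0.0067, 0.20, 0.17, 0.25 and 0.098 in these types, against 0.035, -0.016, 0.011, -0.0086 and -0.00044 over all genes tested. In each type 1 list gene had an unadjusted p below 0.05, and its estimate was above 0 in dKO against control mice. It was *Lrp1*, a receptor that takes up many ligands, in microglia (log2 0.90, adjusted p = 0.369, in the fit of S02 against S06 and S08), *Csmd1* in RPE and in fibroblast-like cells, *Serping1* in Müller glia and *Cd93* in vascular cells (log2 0.47, adjusted p = 0.9996). These counts stand beside 10.5%, 4.92%, 2.42%, 2.29% and 4.06% of all genes tested in microglia, RPE, Müller glia, vascular and fibroblast-like cells. *Lrp1* was 815 CPM in S02, the lowest of the 9 mice, and over all mice the groups overlapped, at 815 to 1513 CPM in control and 934 to 1551 CPM in dKO mice. *Csmd1*, whose 3′-UTR holds the seed matches printed above, was 15.1, 12.4 and 7.38 CPM in the RPE of control mice S01 to S03 and 18.6, 0, 37.5 and 33.8 CPM in dKO mice S06 to S09. The log2 fold change was 1.30 with a standard error of 0.38 (unadjusted p = 0.0041, adjusted p = 0.725), and S07 had 0 UMIs among 35381 in 11 cells, where 3 UMIs would be 84.8 CPM, so its 0 does not place it against the control mice. In fibroblast-like cells it was 93.6, 173 and 102 CPM in control and 123, 538 and 416 CPM in dKO mice, a difference of 1.58 on the log2 scale with a standard error of 0.46 (unadjusted p = 0.0054, adjusted p = 0.9995), and S06 lay within the control range. Amacrine cells had 942 CPM of *Csmd1*, and the part of RNA from neurons in the other types was not tested.

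Within fibroblast-like cells, the share of cells with a second gene differed with the pair. Of the 83 fibroblast-like cells with *C3*, 24.1% had *Cfb* and 26.5% had *Cd55*, against 12.2% and 13.7% of the 262 cells without *C3*. In contrast, 11.5% of the 52 cells with *Cfb* had *Cd55*, against 17.7% of the 293 cells without *Cfb*. These shares pool cells over mice. Mouse S09 was highest in *C3* and *Cd55* and lowest in *Cfb*, and its part in the shares was not tested. The *C3*-positive cells had more UMIs, with a median of 9643 against 7902.5, as had those with *Cfb*, with 9576.5 against 8398, and cells of 1 mouse are not replicates, so no test was made. Over 91 mouse-by-type sums and 17148 genes, the genes whose log2(CPM + 1) followed *C3* most closely were *Cxcl10* (Pearson's r 0.906), *Cxcl1* and *Lum*, and *Cd46* had *Dst*, *Rbfox2* and *Nhs* as its nearest, with r of 0.72 for *Dst*. *Serping1* was followed by *Lama2*, *Gsn* and *Dact1*, and *Cfb* by *Itgb7*, *Lum* and *Has2*. *Lum* was a gate marker of fibroblast-like cells, so its place beside *C3* and *Cfb* was partly set by the gate. These sums share mice and depth, and the values describe likeness only. In these sums the C1q genes fell under the minimum of 200 UMIs set for this comparison.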

How the data were processed

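Retinas of 4 control and 5 dKO mice were analysed, and the members and gene lists were chosen with earlier results of these data known. The authors deposited raw UMI counts per gene and cell on GRCm39, made with split-pipe, and the submitters' processing notes name R 4.2.2 and Seurat 4.3.0, which the study used for its own clustering after counting. No cell type came with the cells, so they were gated by marker UMIs, with thresholds read from the distributions of the markers. Free RNA and doublets were not modelled, and cells that passed 2 gates were left out.

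For each mouse and type with at least 10 cells, counts were summed, filtered with filterByExpr and TMM-normalized, and tested with edgeR's quasi-likelihood test (edgeR 4.0.16, R 4.3.3), Benjamini-Hochberg adjusted over all genes. Types were compared with the mouse as a block, and the standard error was derived from the F statistic. Pairs of member and type that the filter removed were tested over mice if they had at least 10 UMIs. This was done by exact permutation (scipy 1.17.1) of log2(CPM + 1), two-sided. The C1q genes in microglia and *Cfi* in rod bipolar cells were added, which gave 9 tests. The fits were tested on simulated data. There, a change of 1 on the log2 scale between dKO and control was often missed. It was found in 38% of changed genes in RPE, 56% in Müller glia, 23% in vascular and 22% in fibroblast-like cells. The share was lower still in microglia. A change of 2 was found in 89%, 96%, 81% and 84% in these 4 types. All 9 members are named, with other list genes by their level within a role or by the lowest p of a comparison, and the 3 genes most correlated with a member. The promoter search and the minimum of 5 cells were added after the data were seen. Depth was 15079143 to 66528160 UMIs per mouse, and intervals cover counting error only. The alternatives were DESeq2 (1.42.0), plain library size, no low-count filter, stricter and looser gates, other minimums of cells, each mouse left out, the 3 rod-rich mice left out, and S06 and S07 summed. Labels do not give cultures or litters, so p-values measure the spread between these mice. Some genes of the wider list are not reported here.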

Additional observations from a re-analysis of the deposited data

How the results depend on the processing

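No paired analysis was possible because control and dKO mice share no replicate number, so the replicate block was used only between cell types of the same mice. None of the 13 tested member values between dKO and control passed the adjusted threshold under any alternative run. The direction turned for *C1qa*, *C1qb* and *C1qc* in microglia with no minimum of cells (log2 0.38, 0.43 and 0.24) and with at least 5 cells, an alternative added after seeing the data (0.42, 0.38 and 0.15), and for *C1qa* with S06 and S07 summed (0.17). It also turned without 1 mouse for *Cd46* in RPE (-0.31 to 0.038, with 0.015 without control S02 and 0.038 without dKO S06) and in vascular cells (-0.20 to 0.13, with 0.011 without S01, 0.044 without S03 and 0.13 without S09), for *Serping1* in vascular cells (-0.26, without S01, to 0.62) and for *C3* in fibroblast-like cells (-0.072, without S09, to 0.84). The cause was not tested.

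The number of genes called between dKO and control changed with the processing. In microglia it was 55, and 6 by DESeq2, 7 with no filter, 1 with the looser gate, 1 with no minimum of cells and 0 with at least 5 cells. In RPE it was 1, and 101 with no filter, 10 with no minimum of cells and 0 with the stricter gate, the looser gate, without S04, S05 and S07, and with S06 and S07 summed, and from 0 to 44 with a mouse left out (44 without control S02). In Müller glia it was 0, and 1 by DESeq2 and from 0 to 1 with a mouse left out. In vascular cells it was 0, and 60 with no filter. In fibroblast-like cells it was 0, and 57 with no filter and 1 by DESeq2. Between types, control mice alone gave 1507 genes for microglia in place of 3459, 2888 for vascular cells in place of 4592 and 3215 for fibroblast-like cells in place of 4974. The leading types of the C1q genes, *C3*, *Cfb*, *Cd55* and *Serping1* kept their adjusted call in all 17 alternatives, the fit without the replicate block included. For all of these but *Serping1*, the low-count filter kept the gene mainly through its leading type. The alternatives also draw on largely the same cells, so the kept calls give no separate support. The *C3* call is against the mean of the other types. It does not cover the lead over microglia, which did not hold in every mouse. For *Cd46* in vascular cells the call was lost in control mice only (adjusted p = 0.0666). Leaving out the one control mouse or 1 of the 2 dKO mice of the microglia comparison gave no fit. Depth limits the microglia most, with 64 cells.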

Other observations

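Of the 7 terminal pathway genes on the list, *C7* was highest, at 7.94 CPM (25 UMIs) in fibroblast-like cells and 5.54 CPM (7 UMIs) in pericytes. The others were at most 1.59 CPM in the 5 types, and all 7 had 0 UMIs in microglia. Over the 91 mouse-by-type sums, the genes nearest to *Cfi* were *Gm5835* (Pearson's r 0.901), *Gm20072* and *Gm19786*, and those nearest to *Cd55* were *Adgrd1* (0.880), *Has2os* and *Pi16*. These are descriptions of sums that share mice and depth.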
